A study of Mus musculus with 9 samples.

Results

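The extracellular matrix genes described here were 56 of the 13223 genes listed for sorted mouse thymic tuft cells: every gene symbol of the collagen and laminin chain families in the list, 30 collagens and 10 laminins, and 16 further matrix genes taken by name (Fn1, Fbn1, Fbln1, Fbln2, Sparc, Dcn, Lum, Bgn, Fmod, Mgp, Nid1, Hspg2, Postn, Eln, Mfap5 and Tnc). They were read as 8 fibrillar collagens, 17 basement membrane genes and 31 others. Tuft cells are rare chemosensory epithelial cells, and in the thymus they sit in the medulla. Libraries came from thymi of young wild-type females, 4 from mice killed 3 days after a sublethal dose of 425 rad and 5 from untreated mice matched to them in age. All thymi were dissociated with Liberase TH and DNase before tuft cells were sorted. The sources used here do not give the exact age, the sorting gate, the cell numbers or the mouse behind each library. The p-values therefore reflect only how much the 9 libraries varied, and that variation may be technical. Bulk MARS-seq reads the 3′ end of polyadenylated RNA.

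The matrix is made of distinct layers. Fibrillar collagens such as types I and III form the tension-bearing fibres of connective tissue and are mainly made by fibroblasts. Basement membranes are thin sheets under epithelia and around vessels, in which laminin trimers and a type IV collagen network are joined by nidogen and perlecan. Small leucine-rich proteoglycans, fibulins and fibrillin-based elastic fibres bind or organise these fibres. In the thymus, fibroblasts of the capsule and septa make much of the interstitial matrix, while the sheets around vessels and under the epithelium carry laminins and type IV collagen.

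Totals ran from 509157 to 978442 counts a library. The labelled cell type was borne out by its markers: all 10 listed tuft markers were present in each library, with a summed level of 6240.3 to 14326.1 counts per 1000000 counts (CPM) in untreated and 10715.2 to 14467.4 CPM in irradiated libraries, and none was called. Untreated replicate 2 had the lowest tuft sum and also the lowest of the untreated values for 24 of the 44 matrix genes tested (54.5%, against 24.9% of all tested genes). Irradiated replicate 4 had the smallest total and stood apart on the first principal component, at 75.08, with the other 8 libraries between -31.77 and 6.12. Levels are TMM-scaled CPM; each fold change is a log2 difference, irradiated over untreated, with its standard error (SE), and the adjusted p is from edgeR's quasi-likelihood test with Benjamini-Hochberg adjustment over all 8934 genes tested, called below 0.05.

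Of the 56 matrix genes 44 passed the filter on low counts. Fmod, Fbln1 and Col18a1 rose after irradiation, and no matrix gene was called lower. The 3 calls were 6.82% of the 44, where 1.22% of all tested genes were called higher and 0.123% lower. Without untreated replicate 1 edgeR called 5 matrix genes higher, against 0.984% of the genes tested there, and without untreated replicate 2 also 5, against 1.27%. DESeq2's Wald test called 7 matrix genes higher, against 2.01% of all tested genes, and none lower, against 0.739%. The voom fit with quality weights called 4 higher, against 1.65%, and none lower, against 0.269%. At an unadjusted p under 0.05 edgeR placed 15 matrix genes higher (34.1%, against 6.07% of all tested genes) and 0 lower (against 4.52%). Fitted differences were above 0 for 35 of the 44 (79.5%, against 47.5% of all tested genes) and below 0 for 9, with a median log2 difference of 0.34 beside -0.02 over all tested genes. Expression ranges of the 2 groups did not overlap for 7 matrix genes, all higher after irradiation (15.9%, against 3.06% of all tested genes; 0 were lower, against 2.08%): Fmod, Fbln1, Col18a1, Col1a1, Col1a2, Col3a1 and Fn1. The 12 genes that did not pass the filter were Col4a5, Col4a6, Col5a2, Col6a4, Col6a5, Col7a1, Col9a1, Col9a2, Col13a1, Col20a1, Col22a1 and Lamc3. Of these Col4a5 alone had groups that did not overlap, at 1.315 to 6.166 CPM untreated and 9.329 to 14.04 CPM irradiated, from 18 and 35 counts in all; the 12 genes had 5 to 37 counts over the untreated and 5 to 39 over the irradiated libraries.

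The start regions of the 3 called genes and of Col1a2 and Col3a1, the 2 fibrillar collagens with the highest counts, are shown because these genes carry the differences described. Each stretch is RefSeq sequence of GRCm38.p6, the mm10 build, written 5′ to 3′ on the gene's own strand and limited to bases outside annotated exons. Capitals mark the 3 motifs searched for that were found on either strand: the letters TATAAA of a core promoter element, the letters CCAAT of the box of that name, and the letters GGGCGG of a GC box. The AP-1 site, with the letters TGANTCA, was searched for as well.
Fmod, chr1:134037004-134037253, plus strand: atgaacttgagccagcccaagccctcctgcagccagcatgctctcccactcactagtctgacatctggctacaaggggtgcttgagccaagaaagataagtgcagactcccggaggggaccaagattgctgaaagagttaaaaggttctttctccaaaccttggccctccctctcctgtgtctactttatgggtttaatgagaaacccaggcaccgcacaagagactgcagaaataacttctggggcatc
Fbln1, chr15:85205699-85205948, plus strand: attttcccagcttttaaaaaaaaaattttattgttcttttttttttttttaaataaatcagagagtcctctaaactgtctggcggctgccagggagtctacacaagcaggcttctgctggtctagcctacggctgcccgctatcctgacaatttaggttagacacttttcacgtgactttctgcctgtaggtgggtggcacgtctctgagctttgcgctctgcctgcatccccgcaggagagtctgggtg
Col18a1, chr10:77166549-77166780, minus strand: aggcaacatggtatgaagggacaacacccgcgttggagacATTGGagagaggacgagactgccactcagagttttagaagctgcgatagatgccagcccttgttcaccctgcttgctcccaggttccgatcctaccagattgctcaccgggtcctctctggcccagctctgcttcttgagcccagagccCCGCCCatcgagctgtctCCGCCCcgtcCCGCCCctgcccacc
Col1a2, chr6:4505370-4505492, plus strand: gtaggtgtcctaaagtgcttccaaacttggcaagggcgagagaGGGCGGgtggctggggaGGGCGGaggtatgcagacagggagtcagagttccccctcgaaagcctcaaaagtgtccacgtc
Col3a1, chr1:45311288-45311537, plus strand: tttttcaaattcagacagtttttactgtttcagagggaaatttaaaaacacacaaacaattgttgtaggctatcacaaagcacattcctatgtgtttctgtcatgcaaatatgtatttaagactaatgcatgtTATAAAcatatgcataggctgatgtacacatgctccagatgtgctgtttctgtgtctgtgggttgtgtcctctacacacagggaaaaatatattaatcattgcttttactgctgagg
The Fmod and Fbln1 stretches, each the 250 bases before the first base of the transcript, held none of the 4 motifs. A second annotated Fbln1 start, at base 85206008, has a GC box 11 to 6 bases upstream, and the window before a second Col18a1 start, at base 77113705, held none. Col18a1, shown from 250 to 19 bases upstream, held 1 CCAAT box and 3 GC boxes, all present as the reverse complement. Col1a2, shown from 248 to 126 bases upstream of a RefSeq start at base 4505618, held 2 GC boxes, and a CCAAT box lay at 109 to 105 bases upstream, past the end of the stretch. Col3a1 held TATAAA at 117 to 112 bases upstream. Among the same 250-base windows of all 32851 promoters in the table, TATAAA was present in 12.4%, CCAAT in 33.8%, GGGCGG in 32.7% and TGANTCA in 6.75%. Of the 56 matrix genes 40 had a promoter among these, with 47 promoters in all. TATAAA was present in 6 of the 47 promoters, CCAAT in 12, GGGCGG in 27 and TGANTCA in 1. No 2 matches in the printed stretches overlap, and a match describes the sequence only.

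Fmod encodes fibromodulin, a small leucine-rich proteoglycan that binds collagen fibrils. It lies at chr1:134037254-134048277 on the plus strand. Its levels were 16.75, 4.445, 6.166, 5.26 and 6.97 CPM in untreated replicates 1 to 5 and 92.06, 36.28, 53.75 and 54.71 CPM in irradiated replicates 1 to 4. Each irradiated library was above each untreated one, and untreated replicate 1 was the highest of its group. Fmod rose by 2.81 ± 0.39 (log2, SE; 7.03-fold; edgeR adjusted p = 0.00203), from 7.918 ± 5.027 (SD, n = 5) to 59.2 ± 23.49 CPM (SD, n = 4), on 33 and 168 counts in all.

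The other proteoglycans of this family were not called. Dcn, decorin, which coats and spaces collagen fibrils, had 1237.4, 197.0, 657.3, 544.4 and 724.9 CPM untreated and 2315.6, 1519.6, 1524.0 and 542.9 CPM irradiated. Its groups overlapped through irradiated replicate 4, the lowest of its group, and the difference was 1.13 ± 0.49 (adjusted p = 0.44). Without untreated replicate 2 and irradiated replicate 4 the edgeR adjusted p for Dcn was 0.0434, an alternative chosen after the data were seen. Lum, lumican, went from 33.31 ± 18.79 to 82.49 ± 28.45 CPM (1.27 ± 0.43, adjusted p = 0.246). Bgn, biglycan, went from 287.1 ± 137.5 to 439.0 ± 160.0 CPM (0.6 ± 0.37, adjusted p = 0.642). All 4 family members had a fitted difference above 0 (against 47.5% of all tested genes), with a median of 1.2.

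Fbln1 encodes fibulin-1, a glycoprotein of basement membranes and elastic fibres. It lies at chr15:85205949-85286535 on the plus strand. Levels were 46.06, 19.26, 22.2, 27.62 and 37.64 CPM untreated and 195.0, 123.4, 101.9 and 155.7 CPM irradiated. The lowest irradiated library was above the highest untreated one. Fbln1 rose by 2.21 ± 0.27 (4.63-fold; edgeR adjusted p = 0.000916), from 30.55 ± 11.14 to 144.0 ± 40.59 CPM. Both Fbln1 and Fmod were called in each of the 16 other settings in which they were tested, including each with 1 library left out.

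Fbln1 was the member called among 5 genes of elastic fibres and fibulins, all with a fitted difference above 0 and an unadjusted p under 0.05, with a median of 1.3. Over all tested genes 47.5% were above 0 and 6.07% were higher at an unadjusted p under 0.05. Fbln2, a second fibulin, went from 69.56 ± 14.23 to 125.9 ± 41.06 CPM (0.83 ± 0.24, adjusted p = 0.144). Fbn1, fibrillin-1, the backbone of elastic microfibrils, went from 67.55 ± 27.28 to 105.4 ± 8.521 CPM (0.63 ± 0.27, adjusted p = 0.387). The remaining 2 of the group, added to the text after their values were seen, were Mfap5, a microfibril protein, at 1.3 ± 0.37 (adjusted p = 0.148), and Eln, elastin, at 1.55 ± 0.53 (adjusted p = 0.269), or 0.9 (adjusted p = 0.457) without irradiated replicate 4. Mfap5 was called by DESeq2 and without untreated replicate 4.

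Col18a1 encodes the chain of type XVIII collagen, a heparan sulfate bearing collagen of epithelial and vascular basement membrane zones, whose C-terminal fragment is endostatin. It was counted here among the other collagens and lies at chr10:77052178-77166548 on the minus strand. Levels were 40.83, 53.34, 57.96, 40.77 and 41.82 CPM untreated and 104.5, 95.37, 79.5 and 168.3 CPM irradiated. The groups did not overlap, and irradiated replicate 4 was the highest. Col18a1 rose by 1.24 ± 0.24 (2.35-fold; edgeR adjusted p = 0.0177), from 46.94 ± 8.125 to 111.9 ± 39.0 CPM. Without irradiated replicate 4 Col18a1 was at 0.99 (adjusted p = 0.0206). The call held in 11 of 16 other settings. The adjusted p was 0.0604 without irradiated replicate 1, 0.0534 without untreated replicate 4 and 0.106 with the replicate number as a block. It was 0.051 without untreated replicate 5, a fit counted under both its names among the settings without the call.

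Col15a1, the related multiplexin collagen, went from 84.06 ± 40.46 to 120.0 ± 72.7 CPM with overlapping groups (0.47 ± 0.44, adjusted p = 0.793). Col8a1, a short-chain network collagen, went from 14.54 ± 11.61 to 7.583 ± 9.129 CPM (-0.75 ± 0.75, adjusted p = 0.81).

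Among fibrillar collagens the chains of types I and III were higher in irradiated libraries, but none passed edgeR's adjusted threshold. Of 7 tested 3 were higher at an unadjusted p under 0.05, against 6.07% of all tested genes. DESeq2 called 2 of the 7 higher, Col1a2 and Col3a1, against 2.01% of all tested genes, and voom called 0. The median log2 difference of the 7 was 0.37. Col1a2, the α2 chain of type I collagen, lies at chr6:4504814-4541544 on the plus strand. It had 412.5, 63.71, 242.9, 190.7 and 228.6 CPM untreated and 802.0, 499.6, 469.2 and 860.7 CPM irradiated. All 4 irradiated libraries were above the untreated ones, among which replicate 1 was highest and replicate 2 lowest. The difference was 1.52 ± 0.41 (edgeR adjusted p = 0.146), and the adjusted p was 0.0368 without untreated replicate 1, 0.0342 without untreated replicate 2 and 0.0105 by DESeq2. Over all fits with 1 library left out it reached 0.376, without irradiated replicate 4.

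Col3a1, the chain of type III collagen, lies at chr1:45311538-45349706 on the plus strand, 24614 bases from Col5a2. It had 198.9, 38.52, 199.8, 198.6 and 177.0 CPM untreated and 546.1, 431.2, 353.8 and 1123.7 CPM irradiated. The groups did not overlap, with untreated replicate 2 far below its group and irradiated replicate 4 the highest. Its difference was 1.91 ± 0.47 (edgeR adjusted p = 0.107), with an adjusted p of 0.015 without untreated replicate 2, 0.00118 without that library and irradiated replicate 4 together, and 0.0014 by DESeq2. Without irradiated replicate 4 alone Col3a1 was at 1.44 (adjusted p = 0.278). An annotated gene on the same strand, Gm47302, shares exon bases with Col3a1, so counts there depend on how shared reads were assigned.

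Col1a1, the α1 chain of type I collagen, had a lower level than Col1a2 in each library, at 2.963 to 19.89 CPM untreated and 26.87 to 51.49 CPM irradiated. Its groups did not overlap, and the difference was 1.31 ± 0.39 (adjusted p = 0.166). The log2 ratio of Col1a2 to Col1a1 was 4.06 ± 0.5 untreated and 4.18 ± 0.28 irradiated. These are levels of 3′-end counts, which depend on how much of each gene's 3′ end was counted and not on the length of the transcript. The log2 ratio of Col1a2 to Col3a1 was 0.47 ± 0.43 untreated and 0.2 ± 0.41 irradiated, with overlapping groups.

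The other fibrillar collagens had smaller fitted differences. Col27a1, a fibrillar chain best known from cartilage, had 93.17, 103.7, 92.49, 80.22 and 101.8 CPM untreated and 74.9, 94.33, 119.8 and 92.59 CPM irradiated (0.02 ± 0.18, adjusted p = 0.977). Col5a3, a type V chain, had 28.27, 35.56, 49.33, 19.73 and 29.27 CPM untreated and 46.81, 19.69, 26.87 and 42.09 CPM irradiated (0.03 ± 0.33, adjusted p = 0.983). The groups lay across each other for both genes. Col5a1, whose chain helps start type I fibrils, went from 18.62 ± 7.226 to 24.79 ± 11.89 CPM (0.37 ± 0.39, adjusted p = 0.82).

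**Figure D1:**
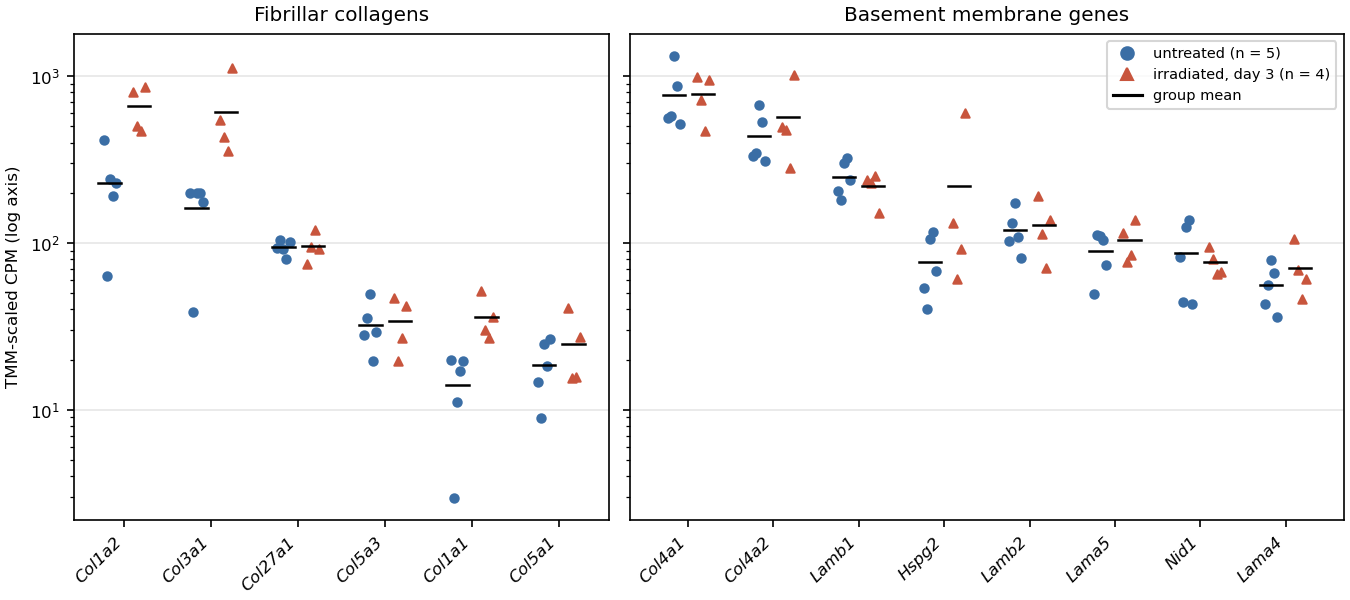
Level in each library (TMM-scaled CPM, log axis) of the 6 fibrillar and 8 basement membrane genes with the highest mean levels; circles are 5 untreated and triangles 4 irradiated libraries, and lines are group means. Col1a2, Col3a1 and Col1a1 separate the groups, with untreated replicate 2 lowest, at 63.71 CPM for Col1a2, while the other 11 genes overlap.

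Genes of the basement membrane class (type IV collagens, laminins, Nid1 and Hspg2) showed no call in either direction by edgeR, DESeq2 or voom. Over all tested genes edgeR called 1.22% higher and 0.123% lower, DESeq2 2.01% and 0.739%, and voom 1.65% and 0.269%. Fbln1 and Col18a1, described above as proteins of basement membranes or their zones, were called but counted among the others. Of 14 tested in the basement membrane class, 0 had an unadjusted edgeR p under 0.05, against 6.07% of all tested genes higher and 4.52% lower. At these shares 0 calls among 14 genes do not set the class apart. Fitted differences were above 0 for 8 and below 0 for 6, and the median was 0.04. A p that misses the threshold does not show that the levels were the same. Col4a1 and Col4a2, the 2 chains of the ubiquitous type IV collagen network, lie head to head, at chr8:11198423-11312826 on the minus strand and chr8:11312805-11449287 on the plus strand, and their annotated 5′ ends share 22 bases. Col4a1 had 564.3, 576.3, 1323.2, 875.8 and 517.2 CPM untreated and 994.0, 717.3, 466.9 and 944.8 CPM irradiated, with the highest level in untreated replicate 3 and the lowest in irradiated replicate 3. The difference was 0.02 ± 0.30 (adjusted p = 0.99).

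Col4a2 had 331.9, 348.2, 670.9, 530.0 and 309.5 CPM untreated and 497.8, 472.7, 281.1 and 1014.3 CPM irradiated. Irradiated replicate 4 was the highest and irradiated replicate 3 the lowest of all 9 libraries. Its difference was 0.36 ± 0.35 (adjusted p = 0.793), and -0.07 without irradiated replicate 4. The log2 ratio of Col4a2 to Col4a1 was between -1.0 and -0.6 in 8 libraries and 0.1 in irradiated replicate 4. Col4a4, an α4 chain found in specialised basement membranes, was highest in irradiated replicate 3, at 110.9 CPM, and lowest in irradiated replicate 4, at 14.73 CPM (0.53 ± 0.42, adjusted p = 0.738, and 0.82 with adjusted p = 0.27 without irradiated replicate 4); it was added after its values were seen.

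Laminins, the αβγ trimers on which a basement membrane assembles, had 4 fitted differences above 0 and 5 below among 9 tested, with a median of -0.19. Lamb1, the β1 chain, had 204.1, 180.7, 299.7, 320.9 and 239.8 CPM untreated and 238.7, 230.1, 251.9 and 151.5 CPM irradiated. The groups overlapped, and the lowest level was in irradiated replicate 4 (-0.19 ± 0.21, adjusted p = 0.831). Lamb2, the β2 chain, went from 119.7 ± 35.34 to 128.1 ± 50.63 CPM (0.09 ± 0.28, adjusted p = 0.945). Lama5, the α5 chain typical of mature epithelial basement membranes, went from 89.57 ± 27.17 to 103.5 ± 27.73 CPM (0.2 ± 0.26, adjusted p = 0.854). Lama4, an α chain of vascular basement membranes, went from 56.03 ± 17.19 to 70.36 ± 25.6 CPM (0.32 ± 0.28, adjusted p = 0.772).

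Lamb3, a β chain of an epithelial laminin that anchors hemidesmosomes, was singled out after its values were seen because 1 library set it apart. It had the lowest fitted difference of all tested matrix genes, at -1.13 ± 0.57 (adjusted p = 0.524), with 74.08 CPM in untreated replicate 2 and 9.758 to 19.73 CPM in the other untreated libraries. Without that library it was at -0.34 (adjusted p = 0.858). Lama3, an α chain of the same kind of laminin, was at -0.71 ± 0.54 (adjusted p = 0.724), with 57.78 CPM in untreated replicate 2 and 6.281 to 23.7 CPM in the other untreated libraries, and at -0.21 (adjusted p = 0.936) without it. Untreated replicate 2 also had the highest Krt5, Krt14, Aire and Prss16 levels of all libraries, at 743.7, 281.5, 210.4 and 222.2 CPM. Ly75 and Psmb11 were highest there too, and Epcam, Krt8, Krt18, Cldn3 and Cldn4 were not. A link of these thymic epithelial markers to Lamb3 and Lama3 was not tested. Lama2, Lamc1, Col11a2 and Postn also had overlapping groups, with differences from -0.41 to 0.2.

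Hspg2, perlecan, a large heparan sulfate proteoglycan, and Nid1, nidogen, link laminin to type IV collagen. Hspg2 had 53.39, 40.0, 106.1, 117.0 and 68.31 CPM untreated and 131.1, 61.16, 91.82 and 597.6 CPM irradiated. Irradiated replicate 4 was far above every other library. Irradiated replicate 1, at 131.1 CPM, was also above the highest untreated library, at 117.0 CPM, and irradiated replicates 2 and 3 lay within the untreated range. Its difference of 1.48 ± 0.69 (adjusted p = 0.505) was 0.28 without irradiated replicate 4. Nid1 went from 86.6 ± 44.06 to 76.82 ± 13.87 CPM (-0.18 ± 0.33, adjusted p = 0.906).

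Set against each other, the summed fibrillar level was 777.8, 285.9, 638.8, 536.6 and 602.2 CPM untreated and 1591.6, 1104.0, 1040.3 and 2194.8 CPM irradiated, so that the groups did not overlap. The summed basement membrane level was 1588.1, 1727.5, 3094.1, 2423.7 and 1554.3 CPM untreated and 2568.4, 1997.5, 1585.6 and 3257.5 CPM irradiated, with overlapping groups. The ratio of irradiated to untreated means was 2.609 for the fibrillar and 1.132 for the basement membrane sum. The log2 ratio of fibrillar to basement membrane sum was -1.89 ± 0.66 (SD, n = 5) untreated and -0.68 ± 0.13 (SD, n = 4) irradiated. By library it was -1.03, -2.59, -2.28, -2.18 and -1.37 untreated and -0.69, -0.86, -0.61 and -0.57 irradiated, so each irradiated value was above each untreated one and the untreated libraries varied more. The difference in log2 ratio was 1.21; it was 0.99 without untreated replicate 2 and irradiated replicate 4, 0.97 without the gene of the highest level in each class, and 0.68 when log2(CPM + 1) was averaged over genes so that each gene counted equally. It is given with no p because the genes were chosen with results known, and Fbln1 and Col18a1 are in neither sum. Col1a2 held 40.1% of the fibrillar level untreated and 44.4% irradiated, and Col3a1 28.6% and 41.4%, so the sum is mainly these 2 genes; Col4a1 and Col4a2 held 35.3% and 22.5% of the basement membrane level over both groups.

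**Figure D2:**
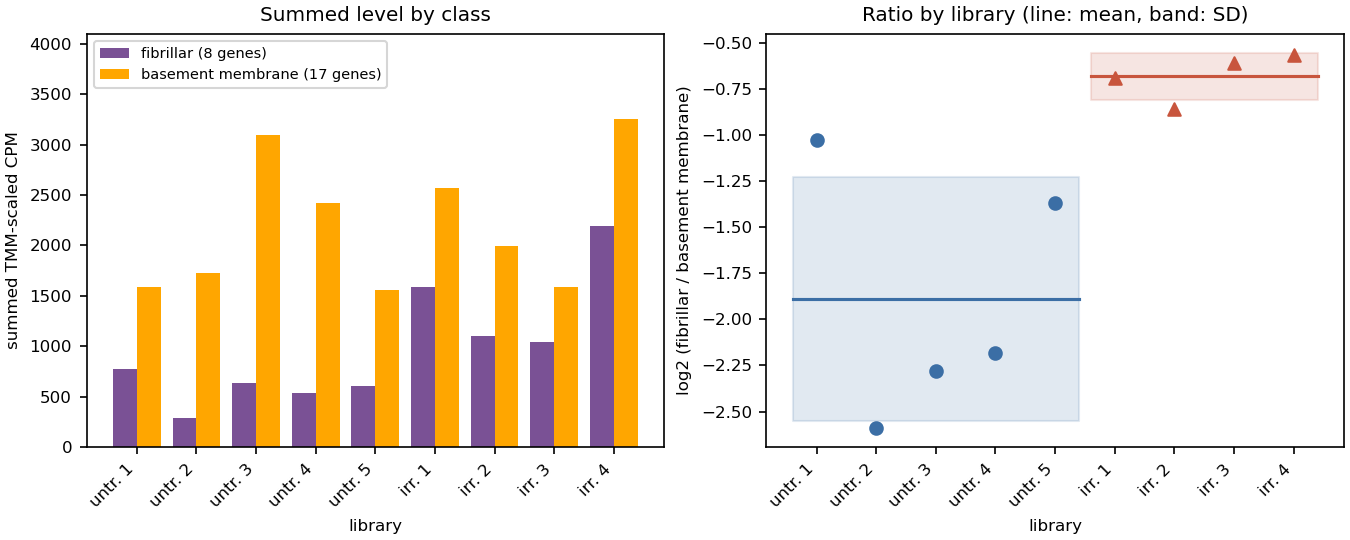
Left, summed level of the fibrillar and basement membrane genes in each of the 9 libraries (TMM-scaled CPM); right, log2 of the ratio of these sums by library, with a line at the group mean and a band of 1 SD (n = 5 untreated, n = 4 irradiated). The fibrillar sum is 285.9 to 777.8 CPM untreated and 1040.3 to 2194.8 CPM irradiated, whereas the basement membrane sums overlap.

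Fibronectin, matricellular proteins and the Gla protein Mgp form the next role, with 5 genes tested, 0 called by edgeR and a median of 0.31. Of these 2 were higher at an unadjusted p under 0.05, against 6.07% of all tested genes. Mgp, matrix Gla protein, an inhibitor of calcification, had 940.1, 361.5, 440.3, 489.2 and 535.3 CPM untreated and 1952.0, 1186.9, 723.4 and 1917.1 CPM irradiated. Irradiated replicate 3 lay below untreated replicate 1, and the other 3 irradiated libraries lay above all untreated ones. The difference was 1.38 ± 0.33 (edgeR adjusted p = 0.0626). The adjusted p for Mgp was 0.00474 by DESeq2, 0.0283 by voom, 0.0132 without untreated replicate 1 and 0.0164 without irradiated replicate 3, and up to 0.221 over the fits with 1 library left out. Sparc, a collagen-binding matricellular protein, went from 1108.4 ± 385.2 to 1377.6 ± 267.9 CPM (0.31 ± 0.27, adjusted p = 0.764). Tnc, tenascin-C, went from 374.3 ± 93.63 to 384.2 ± 80.02 CPM (0.04 ± 0.22, adjusted p = 0.97). Fn1, fibronectin, one of the 7 genes whose groups did not overlap, had 35.59 to 96.3 CPM untreated and 110.8 to 166.2 CPM irradiated (0.87 ± 0.25, adjusted p = 0.148).

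Collagens that decorate fibrils or form microfilaments were not called. Col14a1, a fibril-associated collagen, went from 12.2 ± 6.522 to 32.2 ± 11.23 CPM (1.37 ± 0.41, adjusted p = 0.166). Col16a1, of the same family, went from 212.9 ± 50.03 to 252.8 ± 43.65 CPM (0.24 ± 0.2, adjusted p = 0.754), and Col9a3 had a difference of 0.31 ± 0.35 (adjusted p = 0.827). The 3 type VI chains tested, which build beaded microfilaments, were at -0.07 ± 0.25 for Col6a1 (adjusted p = 0.949), 0.23 ± 0.29 for Col6a2 (adjusted p = 0.846) and 0.5 ± 0.52 for Col6a3 (adjusted p = 0.819). Exons of 15 matrix genes overlap an annotated gene on the opposite strand. They are Col4a1, Col4a2, Col5a1, Col6a4, Col9a3, Col15a1, Col22a1, Eln, Fbn1, Fn1, Lama2, Lama3, Lamc3, Nid1 and Tnc. The same holds for Mmp7, Mmp19, Ddr1, Ltbp3 and Pcolce, described below, and Pcolce also shares exon bases with Fbxo24 on its own strand. The strand setting of the counting is not given in the sources used here.

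**Figure D3:**
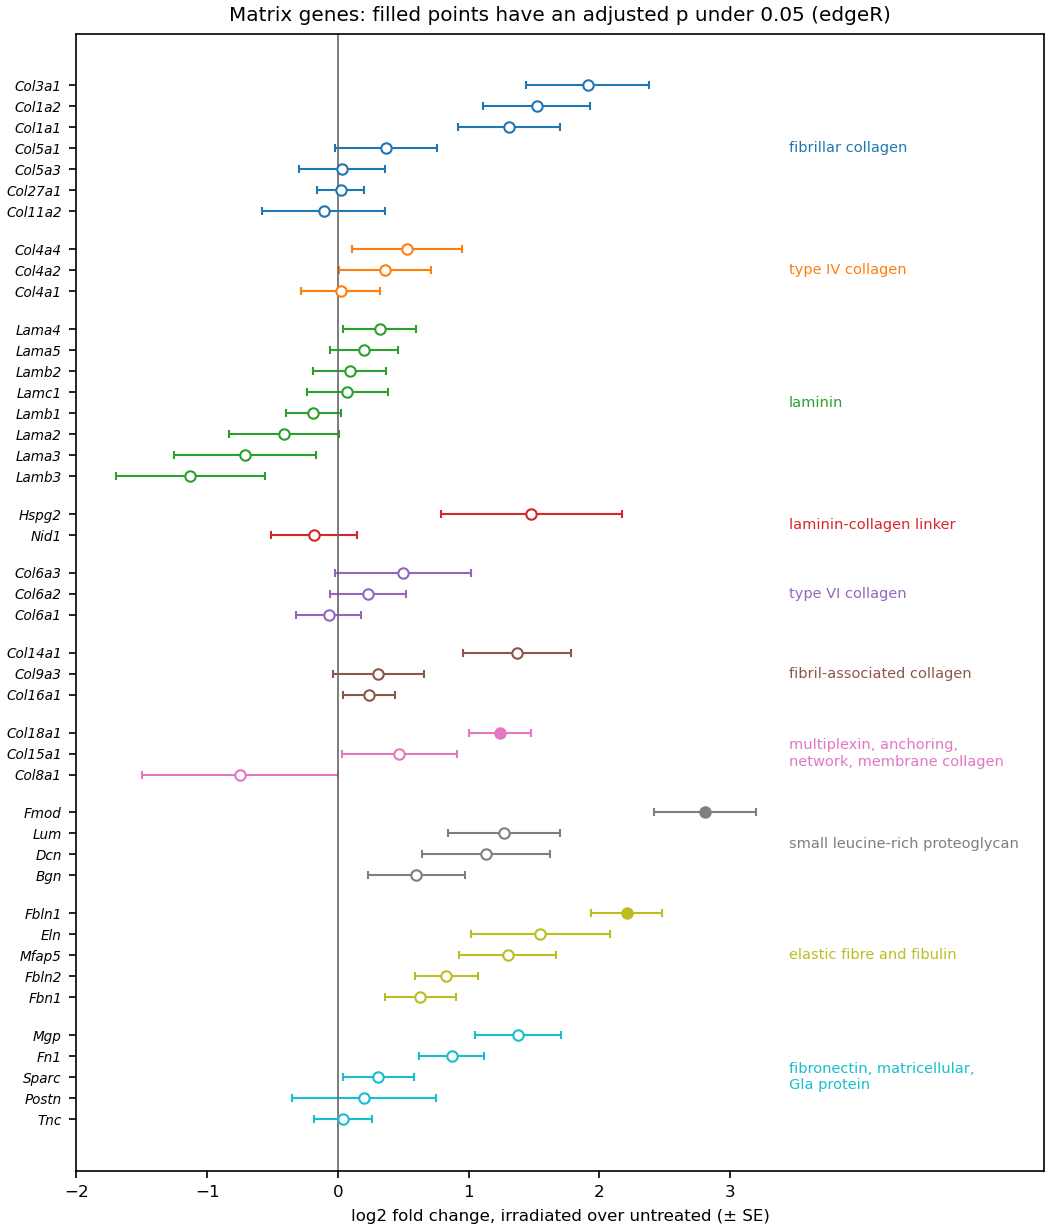
Log2 fold change, irradiated over untreated, with bars of 1 SE for tested matrix genes, coloured by role; filled points have an edgeR adjusted p under 0.05. Fmod, Fbln1 and Col18a1 are filled, at 2.81, 2.21 and 1.24, and the laminins lie from -1.13 to 0.32.

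Markers of other cell types were present in these sorts. The labelled population is epithelial, and in bulk libraries fewer cells of a type and less RNA per cell cannot be told apart. Fibroblast markers that are not matrix genes, 10 listed and 0 called, summed to 1220.7, 285.9, 691.8, 986.3 and 751.4 CPM untreated and 1115.7, 809.6, 986.5 and 1262.6 CPM irradiated, with overlapping groups and the lowest sum in untreated replicate 2. The log2 ratio of the fibrillar sum to the fibroblast marker sum was at most 0 in the untreated libraries, with a mean of -0.39 ± 0.37, and 0.08 to 0.8 in the irradiated ones, with a mean of 0.46 ± 0.3. The fibroblast list includes Thy1, at 424.0 CPM in untreated replicate 1, the library with the highest thymocyte marker sum (779.9 CPM). Thy1 had 41.82 to 98.63 CPM in the other untreated libraries and 43.67 to 92.59 CPM in the irradiated ones. The separation of the ratio rests on Thy1. In untreated replicate 2 the fibrillar and fibroblast sums were both 285.9 CPM, with Thy1 at 54.82 CPM. In irradiated replicate 3 they were 1040.3 and 986.5 CPM, with Thy1 at 43.67 CPM. With Thy1 taken out, the ratio in untreated replicate 2 is above that in irradiated replicate 3. The groups then overlap, so no difference relative to fibroblasts is read from the ratio. Endothelial markers, 10 listed and 0 called, summed to 1091.9 to 2509.6 CPM untreated and 1101.9 to 4013.0 CPM irradiated. Irradiated replicate 4, the highest endothelial sum, was also the highest basement membrane sum and the highest Hspg2 and Col4a2 level. The single genes did not all follow. Pecam1, Cdh5, Egfl7, Cldn5, Plvap and Esam were highest there, Kdr, Emcn and Flt1 were not, and Tek was lowest of all libraries (58.92 CPM). Lamb1 (151.5 CPM) and Col4a4 (14.73 CPM) were also lowest there, and Col4a1 and the laminin sum were highest in untreated replicate 3. The log2 ratio of the basement membrane sum to the endothelial marker sum was 0.26 ± 0.26 untreated and 0.1 ± 0.35 irradiated, with overlapping groups.

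Mesothelial markers, which mark the lining of body cavities, moved with irradiation: of 7 tested 6 were called higher, against 1.22% of all tested genes. Their sum was 385.3 to 869.7 CPM untreated and 1038.0 to 2100.3 CPM irradiated, with no overlap, and irradiated replicate 1, the highest, also had the highest Fmod and Fbln1 level, while Col18a1 and Col3a1 were highest in irradiated replicate 4. The ratio of irradiated to untreated means was 2.879 for the mesothelial, 2.609 for the fibrillar and 1.326 for the fibroblast marker sum. Msln, the tested mesothelial marker not called, was the largest part of its sum, at 436.4 CPM untreated and 625.1 CPM irradiated (0.52 ± 0.29, adjusted p = 0.577). The 6 called markers had log2 differences of 2.6 to 4.26. The ratio of 2.879 therefore does not give the size of their rise, and the mesothelial and fibrillar ratios are not matched in size. The log2 ratio of the fibrillar to the mesothelial sum was not computed by library. Pericyte and smooth muscle markers overlapped, at 454.3 to 1133.3 CPM and 301.2 to 1060.6 CPM. Thymic epithelial markers summed to 4768.5 to 9115.3 CPM untreated and 8550.9 to 12224.1 CPM irradiated, with 1 of 10 tested called higher, Cldn4 (1.11), against 1.22% of all tested genes. Most of the sum was Krt8 and Krt18, with means of 2336.7 and 3502.9 CPM untreated and 3458.5 and 5193.8 CPM irradiated (0.57 for both). Epcam (0.01) and Cldn3 (0.72) were also above 0. Krt5 (-1.09), Krt14 (-0.44), Aire (-1.82), Ly75 (-1.23) and Prss16 (-1.3) were below 0, and none of these was called. Thymocyte markers, 10 listed and 2 tested, summed to 64.12 to 779.9 CPM untreated and 25.91 to 44.79 CPM irradiated, lower in each irradiated library, with 0 called. Macrophage and dendritic markers, 9 listed and 6 tested, summed to 138.0 to 1886.5 CPM and 180.4 to 846.5 CPM, with 0 called. No listed marker was at 0 in every library. The part of any of these cells in the matrix results was not tested.

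**Figure D4:**
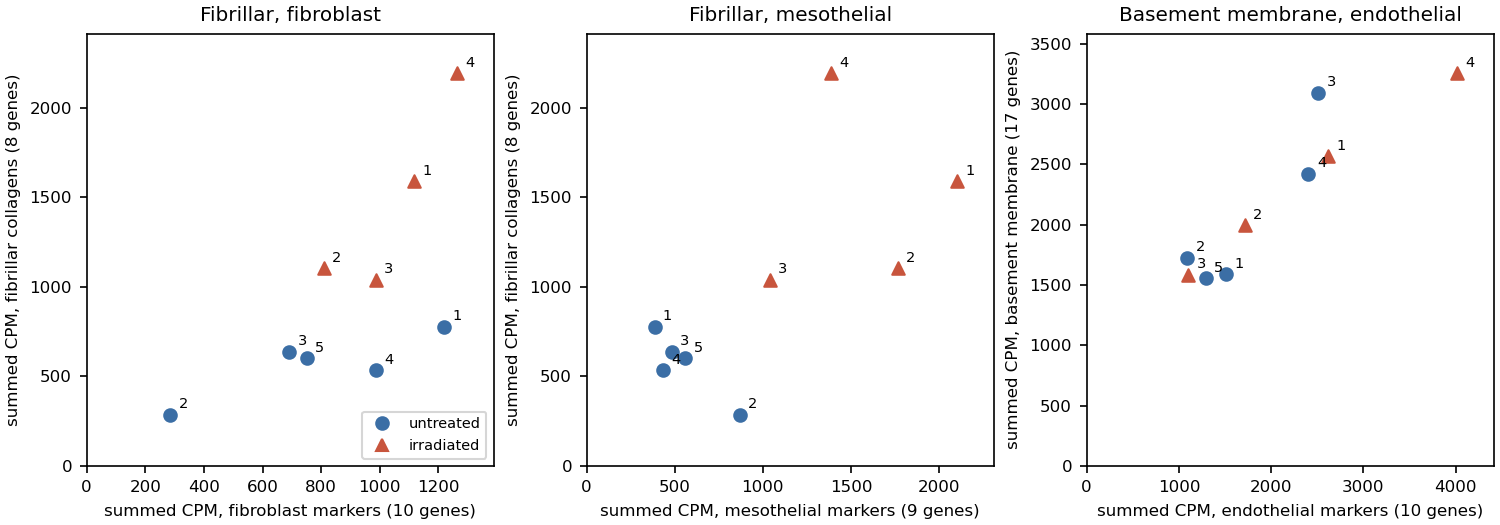
Summed level of fibrillar collagens against fibroblast markers and against mesothelial markers, and of basement membrane genes against endothelial markers (CPM), 1 point for each of 9 libraries, numbered by replicate. The fibroblast marker sums of the groups overlap, whereas the mesothelial sums do not, at 385.3 to 869.7 CPM untreated and 1038.0 to 2100.3 CPM irradiated.

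Genes that make, cross-link and degrade the matrix were read beside its structural genes. Of 20 tested genes of collagen synthesis and cross-linking 2 rose and 0 fell, 16 had a fitted difference above 0, and the median was 0.63, beside 1.22% called higher, 0.123% called lower, 47.5% above 0 and a median of -0.02 over all tested genes. Loxl1, a lysyl oxidase that cross-links elastin and collagen, went from 5.926 to 35.51 CPM across untreated libraries to 58.05 to 103.0 CPM across irradiated ones (2.05 ± 0.37, adjusted p = 0.0107; 0.0641 without irradiated replicate 1). P3h4, a component of a collagen-modifying complex of the endoplasmic reticulum, had 13.61 to 33.3 CPM untreated and 39.19 to 71.78 CPM irradiated (1.48 ± 0.3, adjusted p = 0.0247; up to 0.116 with 1 library left out and 0.127 with the replicate block). Pcolce, which enhances procollagen cleavage, was at 1.06 ± 0.27 (adjusted p = 0.0926; 0.0251 by DESeq2). Bmp1, the procollagen C-proteinase, was at 0.93 ± 0.27 (adjusted p = 0.15), and P3h1, a prolyl 3-hydroxylase, at 0.91 ± 0.3 (adjusted p = 0.212).

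Of 22 tested genes of matrix turnover 5 rose and 0 fell, 15 had a fitted difference above 0, and the median was 0.45, against the same shares over all tested genes (1.22%, 0.123% and 47.5%). Without irradiated replicate 1 edgeR called 1 of these genes higher, and 0 of the synthesis and cross-linking genes, where all tested genes called higher fell from 109 to 50. Plat, the tissue plasminogen activator, went from 38.09 ± 12.37 to 104.5 ± 12.5 CPM (1.44 ± 0.25, adjusted p = 0.00958) and was called with each library left out in turn. Plaur, the urokinase receptor, went from 35.06 ± 15.15 to 109.3 ± 30.88 CPM (1.61 ± 0.3, adjusted p = 0.0159; up to 0.0801 with 1 library left out).

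Other called genes act on or through metalloproteinases. Timp2, a metalloproteinase inhibitor, had 103.7 to 219.8 CPM untreated and 292.5 to 429.1 CPM irradiated (1.2 ± 0.22, adjusted p = 0.0108; 0.0657 without irradiated replicate 1). Mmp19, a metalloproteinase that cleaves basement membrane proteins, had 4.933 to 12.56 CPM and 23.52 to 49.93 CPM (1.94 ± 0.35, adjusted p = 0.0108; up to 0.0683 with 1 library left out). Timp1, another inhibitor, was at 1.76 ± 0.53 (adjusted p = 0.191) with 56.3 CPM in untreated replicate 2 and 6.166 to 15.7 CPM in the other untreated libraries; without that library it was at 2.65 (adjusted p = 0.000834). Mmp2, a gelatinase, was at 1.21 ± 0.38 (adjusted p = 0.2). Mmp7, matrilysin, an epithelial metalloproteinase, had 11.52 to 114.4 CPM untreated and 0.0 to 10.37 CPM irradiated, the reverse order (-3.14 ± 0.95, adjusted p = 0.214).

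**Figure D5:**
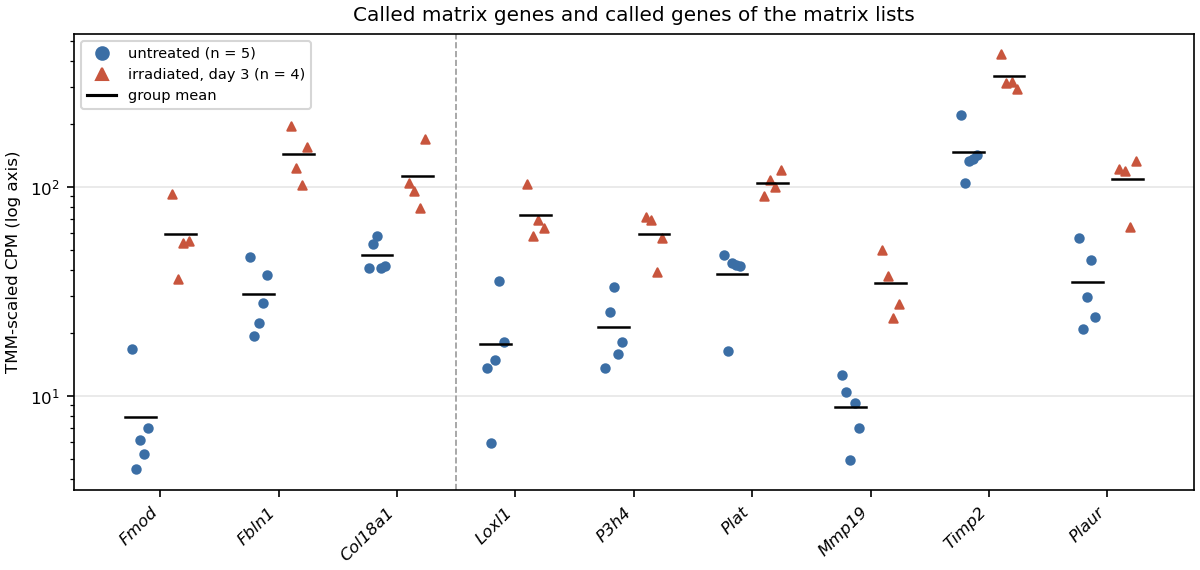
Level in each library (TMM-scaled CPM, log axis) of the called matrix genes, left of the dashed line, and of called genes of the synthesis and turnover lists, right of it; circles are 5 untreated and triangles 4 irradiated libraries, and lines are group means. Every irradiated library lies above every untreated one for each of these genes, with Fmod at 4.445 to 16.75 CPM untreated and 36.28 to 92.06 CPM irradiated.

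Among 16 matrix receptors tested edgeR called 0, and the median was 0.1. At an unadjusted p under 0.05 edgeR placed 2 higher, against 6.07% of all tested genes. DESeq2 called 1 higher, Sdc4, against 2.01% of all tested genes, and voom called 0. Ddr1, a collagen receptor kinase of epithelia, was at 0.85 ± 0.27 (adjusted p = 0.201). Sdc4, syndecan-4, was at 1.59 ± 0.51 (adjusted p = 0.242; 0.0252 by DESeq2), with 683.9 CPM in irradiated replicate 4 and 168.0 to 228.0 CPM in the other irradiated libraries; without that library it was at 0.91 (adjusted p = 0.413). Itga3, an integrin chain that binds laminin, was at 0.38 ± 0.18 (adjusted p = 0.492). Of 18 tested genes of TGF-beta signalling, the growth factor pathway that drives much matrix synthesis, 9 were above 0 and 9 below, with a median of 0.09 and 1 called higher. Over all tested genes 1.22% were called higher. The called TGF-beta gene is also 1 of the 5 called turnover genes. Tgif1, a repressor of the pathway, was at 0.94 ± 0.26 (adjusted p = 0.116), Ltbp3, which binds latent TGF-beta, at 0.97 ± 0.29 (adjusted p = 0.166), and Tgfbi at -1.14 ± 0.54 (adjusted p = 0.49).

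The authors' deposited table passed 6 of the 56 matrix genes (10.7%), all with the irradiated group higher, where 1.11% of its 13223 genes passed in that direction and 0.718% in the other. Its fold changes are written as untreated over irradiated, so that a negative value is a higher irradiated level. In the authors' deposited table the log2 values were -2.87 for Fmod (adjusted p = 5.79e-07), -2.24 for Fbln1 (1.7e-09) and -1.26 for Col18a1 (0.0012). The authors' deposited table also passed Col3a1 at -1.94 (adjusted p = 0.00165), Col1a2 at -1.55 (0.0107) and Mgp at -1.4 (0.0039). Those 3 are the genes named above as called by DESeq2 and not by edgeR, together with Mfap5, which the authors' deposited table did not pass (adjusted p = 0.0724).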

How the data were processed

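The deposited counts per gene are whole numbers in 9 libraries, per the file headers; each listed gene reaches at least 6 counts in some library. The deposited normalized signal, which is the counts divided by 1 size factor a library, and the deposited log2 values were not used to test. Per the submitters' processing notes the build was mm10 and the tools included STAR 2.5.2b, HTSeq, DESeq2, cutadapt and bcl2fastq, with no roles stated; whether molecular identifiers were collapsed is not stated either. The authors' deposited table of log2 fold changes and p-values was quoted, not refitted.

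Counts were tested with edgeR 4.0.16 in R 4.3.3 (robust quasi-likelihood, TMM scaling, filterByExpr with a minimum count of 10, Benjamini-Hochberg adjustment over 8934 genes). The biological coefficient of variation was 28.9%. SE is the log2 fold change over the square root of F. The fits were tested on simulated data. Alternatives were DESeq2 1.42.0, limma 3.58.1 with voom, DESeq2 size factors, no filter, the replicate number as a block, and each library left out.

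The members, lists and tests were chosen with earlier results of these data known. Named were all called genes, the genes with the highest mean level (6 fibrillar, 8 basement membrane, 3 in each other role) and, for the other lists, called genes and the 3 with the next smallest p; exceptions are stated. Gene positions are from GENCODE M21 (mm10), promoters from RefSeq GRCm38.p6. No protein sequences were used here. Some genes are not reported here by name, and count only in totals, sums and medians.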

Additional observations from a re-analysis of the deposited data

Results flagged for a closer look

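In 10 of 120 groups of 4 or 5 libraries checked, 1 library lay far from the others of its group. The groups covered the genes named and the 2 class sums, and the measure was the gap to the nearest library as a share of the group's range. Chance gives about 1 in 20 for independent normal values. These genes share the same libraries, and Lamb3 was named because 1 library set it apart, so no conclusion is drawn from that rate. Untreated replicate 2 was apart for 4 of these genes. Its Col3a1 level was 38.52 CPM, with the next at 177.0 CPM (share 0.859), its Plat level 16.3 CPM, with the next at 41.82 CPM (0.828), and its Timp1 level was the highest, at 56.3 CPM with the next at 15.7 CPM (0.81). Lamb3 was also highest there, at 74.08 CPM with the next at 19.73 CPM (0.845). Irradiated replicate 4 was apart for 4 of them. It was the highest for Hspg2 at 597.6 CPM, with the next at 131.1 CPM (0.87), for Sdc4 at 683.9 CPM, with the next at 228.0 CPM (0.884), and for Col16a1 at 317.8 CPM, with the next at 235.3 CPM (0.871). It was the lowest for Itga3, at 151.5 CPM with the next at 184.8 CPM (0.93). Fmod was highest of the untreated group in replicate 1, at 16.75 CPM with the next at 6.97 CPM (0.795). Col14a1 was lowest of the irradiated group in replicate 2, at 15.55 CPM with the next at 35.83 CPM (0.83).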

How the results depend on the processing

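Over 16 alternatives, 830 of 916 values of 58 named genes kept their direction and side of the threshold, 20 lost and 23 gained the call, and 43 changed sign. In these totals replicates 1 to 4 with no block and leaving out untreated replicate 5 were the same fit, counted under both names. DESeq2 called 180 genes higher and 66 lower over the whole table, against 109 and 11, with 7 matrix genes higher (2 fibrillar, 5 others), 1 receptor and 2 TGF-beta genes. Without untreated 2 and irradiated 4 together, chosen after seeing the data, 147 genes were higher and 17 lower over the whole table. There 5 matrix genes were higher, with 1 fibrillar collagen among them, and the basement membrane median was -0.14. Voom called 24 genes lower, with medians of 0.04 (fibrillar) and -0.11 (basement membrane); without a filter the fibrillar median was 0.74. With the replicate number as a block 91 genes were higher and 22 lower over the whole table. Higher among them were 3 matrix genes (Fbln1, Fmod and Mgp), 1 synthesis gene and 1 receptor, and the fibrillar median was 0.53. Replicates 1 to 4 with no block gave 75 genes higher over the whole table, with 1 synthesis gene. Same-numbered libraries shared only a number: their deviations correlated at 0.067, -0.01, -0.123 and 0.141.

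Leaving out each library in turn gave 50 to 114 genes higher and 2 to 12 lower over the whole table. Calls higher were 2 to 5 of the matrix genes, 0 to 2 of the fibrillar, 0 to 3 of the synthesis, 1 to 6 of the turnover and 0 to 1 of the TGF-beta genes. The fibrillar median ran from 0.13 to 0.57 and the basement membrane median from -0.14 to 0.26.

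The sign changed for these genes, none of them called. Without untreated 2 and irradiated 4 they were Col15a1 (-0.16), Col4a1 (-0.18), Col4a2 (-0.14), Col5a3 (-0.07), Col6a2 (-0.14), Col9a3 (-0.06) and Tnc (-0.08). By voom they were Col4a1 (-0.11), Col5a1 (-0.01), Col5a3 (-0.21), Col9a3 (-0.03), Lama5 (-0.02), Lamb2 (-0.01) and Tnc (-0.09). With the block they were Col4a1 (-0.05), Col5a3 (-0.01) and Lamb2 (-0.07), and without it in the same 8 libraries -0.1, -0.01 and -0.03. With 1 library left out, the ranges were -0.10 to 0.13 for Col27a1, -0.11 to 0.30 for Col4a1, -0.07 to 0.60 for Col4a2, -0.17 to 0.24 for Col5a3, -0.20 to 0.15 for Col6a1, -0.16 to 0.30 for Lamb2, -0.35 to 0.06 for Nid1 and -0.05 to 0.17 for Tnc. The cause of these changes was not tested. The 12 genes under the filter were tested in the fit with no filter, which called 3 matrix genes, Fmod, Fbln1 and Col18a1, and so none of the 12.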
